A study of Mus musculus with 12 samples.

Results

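The regions described here are stretches of H4K12 acetylation that were found in the hippocampal neurons of every mouse and that lie away from the start of any gene. The autosomal peaks of 10 H4K12ac peak lists were merged where they overlapped, which gave 256014 regions. Of these, 23689 held a peak in all 10 lists and are called constant. A total of 12738 constant regions lay more than 2 kb from the transcription start site (TSS) of every annotated gene and are called constant distal regions, and the other 10951 are called constant promoter regions. The choice used the presence of a peak in every mouse and the distance to a TSS, so neither is a result.

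The peak lists come from ChIP-Seq with an antibody against H4K12ac on neuronal nuclei that were sorted by FACS. The nuclei came from the whole hippocampus of 10 mice, 5 with the *Tip60* cKO and 5 controls. *Tip60* cKO mice carried the tamoxifen-inducible *CaMKCreERT2* driver, and both of their *Tip60* alleles were floxed. Control mice carried the same floxed alleles without the driver, and mice of both groups received tamoxifen and were used at day 10 after the last injection. The labels describe male C57BL/6J mice of 3 months, while the study's methods differ from the labels in strain and sex. The driver is active in postmitotic excitatory neurons of the forebrain and less complete in CA2, so sorted nuclei of interneurons keep *Tip60*. A smaller share of acetylated nuclei and less acetylation per nucleus cannot be told apart in these samples. One pooled input library per genotype served as the background of all 5 lists of that genotype.

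TIP60, also named KAT5, is the catalytic subunit of the NuA4 complex and acetylates lysines of histones H4 and H2A. Acetylated H4 tails are found on open chromatin, at active promoters and at enhancers, the distal elements that transcription factors bind to raise the activity of a gene from afar. In excitatory neurons such elements are known around genes of neuronal identity and around the genes that respond to synaptic activity.

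The term candidate enhancer rests here on position alone, since no second histone mark was analysed. The TSS of a gene is its outermost 5′ end, and 2475 constant distal regions (19.4%) lay within 2 kb of the 5′ end of another annotated transcript of a gene. They may hold internal promoters, and they are pointed out where they are named.

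The sequences of 300 bases around the median summit of some regions show what they are made of, and they are given here because the results below return to them. All are forward strands of GRCm38, read from the NCBI RefSeq copy of that build. The first set holds regions with high enrichment, and capitals mark each CpG dinucleotide. They are an intergenic region near *1700001O22Rik* (chr2:30707696-30707995), an intron of *Nfix* (chr8:84784650-84784949) and an intron of *Grik4* (chr9:42897492-42897791), with 34, 25 and 24 CpGs.
1700001O22Rik: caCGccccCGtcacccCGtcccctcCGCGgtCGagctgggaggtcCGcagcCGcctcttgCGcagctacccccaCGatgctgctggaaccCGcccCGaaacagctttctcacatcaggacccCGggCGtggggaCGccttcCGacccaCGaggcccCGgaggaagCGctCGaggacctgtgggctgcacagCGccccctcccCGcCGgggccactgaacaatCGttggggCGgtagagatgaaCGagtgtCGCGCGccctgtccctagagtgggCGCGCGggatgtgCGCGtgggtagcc
Nfix: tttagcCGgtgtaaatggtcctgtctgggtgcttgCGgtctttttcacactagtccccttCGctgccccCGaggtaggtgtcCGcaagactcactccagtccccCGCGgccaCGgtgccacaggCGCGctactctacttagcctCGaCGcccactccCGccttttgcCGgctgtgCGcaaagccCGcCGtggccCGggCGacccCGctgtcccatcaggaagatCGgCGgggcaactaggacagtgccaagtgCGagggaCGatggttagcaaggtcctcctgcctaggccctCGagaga
Grik4: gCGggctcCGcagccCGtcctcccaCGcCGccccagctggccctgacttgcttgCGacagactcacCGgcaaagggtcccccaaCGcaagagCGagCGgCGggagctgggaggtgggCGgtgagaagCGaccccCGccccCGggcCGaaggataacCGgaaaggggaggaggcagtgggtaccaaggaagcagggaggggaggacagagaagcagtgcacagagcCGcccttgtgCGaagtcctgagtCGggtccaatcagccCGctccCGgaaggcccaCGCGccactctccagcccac

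The second sequence comes from an intron of *Rassf5* (chr1:131209882-131210181), at which the genotypes are compared below, and capitals mark a match to the AP-1 motif TGANTCA.
Rassf5: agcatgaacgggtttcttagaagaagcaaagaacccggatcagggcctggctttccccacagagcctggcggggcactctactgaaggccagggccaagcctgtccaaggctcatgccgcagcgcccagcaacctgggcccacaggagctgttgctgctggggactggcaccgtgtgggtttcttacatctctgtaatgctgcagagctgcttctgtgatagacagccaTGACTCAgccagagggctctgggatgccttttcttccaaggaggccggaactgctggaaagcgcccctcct

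The third set lies in introns, and capitals mark the most frequent run of 12 bases, which recurs 14 times in *Gabbr2* (chr4:46777810-46778109) and 10 times in *Akap6* (chr12:52931428-52931727).
Gabbr2: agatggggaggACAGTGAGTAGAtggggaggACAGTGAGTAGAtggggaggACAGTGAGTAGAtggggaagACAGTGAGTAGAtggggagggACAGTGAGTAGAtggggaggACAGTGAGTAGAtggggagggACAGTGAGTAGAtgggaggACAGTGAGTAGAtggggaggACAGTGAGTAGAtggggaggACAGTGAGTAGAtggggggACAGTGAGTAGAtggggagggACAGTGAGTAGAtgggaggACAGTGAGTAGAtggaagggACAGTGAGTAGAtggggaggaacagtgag
Akap6: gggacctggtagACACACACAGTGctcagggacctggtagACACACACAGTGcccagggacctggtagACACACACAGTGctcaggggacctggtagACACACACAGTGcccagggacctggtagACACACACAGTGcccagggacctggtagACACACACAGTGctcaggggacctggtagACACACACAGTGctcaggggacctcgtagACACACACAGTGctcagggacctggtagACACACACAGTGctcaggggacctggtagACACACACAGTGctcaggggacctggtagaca

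Merging peaks of more lists gives longer regions by construction, so lengths are a description only. The median length of constant distal regions was 1739 bp (quartiles 1236 and 2483 bp, range 353 to 18411 bp), against 233 bp for distal regions with a peak in a single list. The percent of regions that were distal was 90.5% among those in 1 list and 53.8% among those in all 10. At the limits of the choice, the constant distal region nearest to a TSS lay 2003 bp from it, and the farthest constant promoter region 2000 bp from it. A further 7133 distal regions had a peak in 9 lists, and 3700 of them lacked it in *Tip60* cKO mouse 5 alone. The median fold enrichment in control lists was 4.59 in constant distal regions, 3.86 in distal regions with 9 lists and 6.04 in constant promoter regions.

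**Figure D1:**
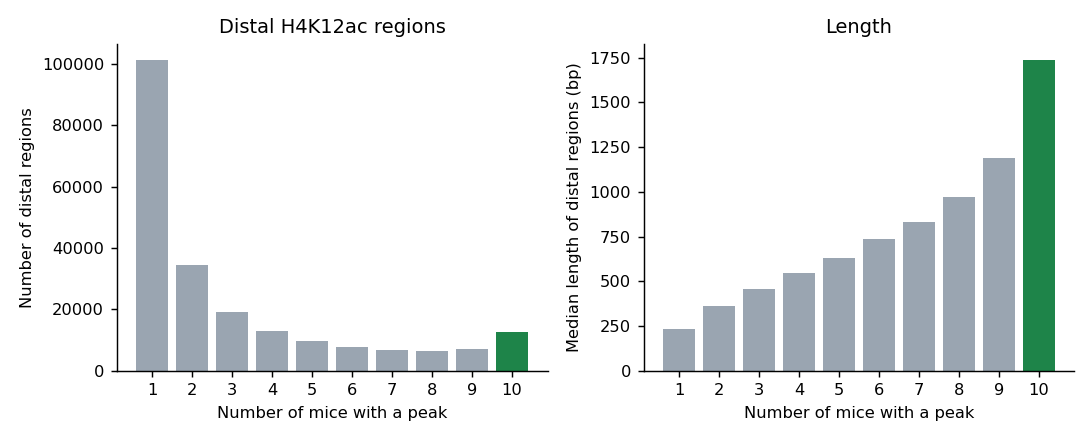
Number of distal H4K12ac regions (left) and their median length in bp (right) by the number of mice with a peak. The green bar marks the 12738 constant distal regions, whose median length of 1739 bp compares with 233 bp for distal regions in 1 list.

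The libraries entered peak calling with 22864189 to 37923809 tags, and the inputs with 43391269 tags for *Tip60* cKO and 44889280 for control mice. The library of *Tip60* cKO mouse 5 stood apart, with the fewest tags, 64245 peaks against 93575 to 136409 in the others, and peaks over 31.7% of the bases of constant distal regions against 48.1 to 68.6%. Without this library 16450 distal regions would be constant. Local input background was at the genome-wide level for 43.7 to 49.6% of the peaks in constant distal regions in *Tip60* cKO lists and for 19.3 to 23.8% in control lists, so the inputs of the genotypes differed. The peak lists hold no measure of the deleted *Tip60* exons, so they do not check the genotype labels.

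Most constant distal regions lay inside genes. The midpoint was in an intron in 7834 regions (61.5%), in an exon in 1580 (12.4%) and between genes in 3324 (26.1%). The median distance to the nearest TSS was 18798 bp, 3861 regions lay within 10 kb of one, and 683 lay more than 100 kb away. They were poorer in CpG than constant promoter regions, with a median observed over expected ratio of 0.237 against 0.622 and a GC content of 51.2% against 57.6%. A GC content above 50% together with a ratio above 0.6 was found in 602 constant distal regions (4.73%) and in 5712 constant promoter regions (52.2%). Summits of the strongest peak varied more between mice in constant distal regions (median SD 292 bp) than in constant promoter regions (156 bp), which were also shorter.

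Motifs were searched on both strands in windows of 300 bp around the summit. The AP-1 motif TGANTCA was found in 7.89% of the constant distal regions, in 8.74% of all 116838 distal regions that at least 2 lists share and in 3.29% of the constant promoter regions. The E-box CAGATG, which NeuroD factors bind, was found in 25.4, 27.1 and 12.3% of the same groups, and the E-box CAGCTG in 26.6, 23.8 and 19%. The CTCF motif, searched as CCA, any 2 bases, AG, any 2 bases and GGC, was found in 2.47, 2.09 and 2.47%, and the SP and KLF motif GGGGCGGGG in 2.64, 1.19 and 9.25%. A match to the CTCF motif can contain either E-box, so these counts can share bases. A match is a description of the sequence only.

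Constant distal regions came in clusters. With gaps of at most 10 kb, 7247 of them (56.9%) fell into 2306 clusters of at least 2, and 56 clusters held at least 10. The 6 clusters with the most members lay in *Celf4* (33 regions over 141 kb), *Msra* (24 over 117 kb), *Rbfox3* (22 over 119 kb), *Trio* (19 over 90.3 kb), *Dscaml1* (19 over 107 kb) and next to *Camk2n1* (18 over 101 kb). Peaks of at least 1 mouse covered 44.1 to 69.6% of these spans. CELF4 and RBFOX3 are RNA-binding proteins of neurons (RBFOX3 is the antigen NeuN), TRIO is a guanine exchange factor of growing axons, DSCAML1 is a cell adhesion molecule, and CAMK2N1 is an inhibitor of CaMKII.

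Each region was assigned to the protein-coding gene that contains it, or else to the one with the nearest TSS. Of 20780 autosomal protein-coding genes, 4490 (21.6%) had a constant distal region, 2289 of them a single one and 210 at least 10. *Msra* had the most (56), followed by *Tcf4* (51), *Myt1l* (49), *Celf4* (48), *Rbfox3* (48), *St6galnac3* (47), *Dscaml1* (42), *Slit3* (40) and *Celf2* (38). TCF4 is a basic helix-loop-helix factor and MYT1L a zinc finger factor of neurons. These genes are long (277 to 970 kb), so the number was also taken per length. *Celf4* held 17.0 regions per 100 kb of gene, *Msra* 15.9, *Dscaml1* 12.8 and *Tcf4* 11.9, against 0.869 over all protein-coding genes. The lowest densities among the genes named were 6.47 at *Slit3* and 3.2 at *Celf2*. These genes were picked for their many regions, which in part fixes a density above that of all genes.

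The sorted nuclei were checked against marker genes of cell types. A constant promoter region lay at 10 of 10 neuronal marker genes, among them the excitatory neuron genes *Slc17a7*, *Camk2a* and *Nrgn*. Of the 10 genes 7 had a constant distal region, for example *Rbfox3*, *Syt1* (9 regions) and *Stmn2* (3). None of 12 interneuron, 8 astrocyte and 6 endothelial marker genes had a constant promoter region, and neither had 10 of 11 microglial and 8 of 10 oligodendrocyte marker genes. The oligodendrocyte genes with one were *Mbp* and *Cnp*. Constant distal regions were assigned to 1 of 12 interneuron genes (*Dlx2*, 77.8 and 81.9 kb away), 2 of 8 astrocyte genes, 3 of 10 oligodendrocyte genes, 2 of 11 microglial genes and 2 of 6 endothelial genes. Of the 16 regions of oligodendrocyte genes 11 belonged to *Mbp*, and of the 10 of astrocyte genes 9 belonged to *Sox9*, up to 410 kb away.

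Among lists of neuronal genes, postsynaptic scaffolds had a constant distal region at 13 of 14 genes (92.9%), with 17 regions at *Shank2*, 14 at *Dlgap1*, 13 at *Dlgap4* and 12 at *Dlgap3*. Transcription factors of excitatory neurons had one at 18 of 23 genes, with 183 regions in all. *Tcf4* held 51 of them, *Bcl11b*, required for CA1 and dentate gyrus neurons, 28, *Bcl11a* 21, *Nfix* 14, *Zbtb18* and *Zbtb20* 12 each, and *Nfib* 11. *Fezf2*, *Etv1* and *Neurod1* were among those with none. Glutamate receptors had one at 16 of 21 genes, with 26 in the kainate receptor gene *Grik4*, 19 at the AMPA receptor gene *Gria1* and 13 at the NMDA receptor gene *Grin2b*, while *Grik1*, *Gria4*, *Grin3a*, *Grm3* and *Grm8* had none.

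Calcium/calmodulin kinases had one at 8 of 11 genes, led by *Camk2b* (13), and potassium channels at 17 of 25, led by *Kcnd3* (18). Synaptic adhesion genes had one at 7 of 15, and 27 of their 41 regions belonged to *Lingo1*. *Lingo2*, which spans 1245 kb, had none. Taken per length, the transcription factor list held 4.08 regions per 100 kb of gene (41 of its 120 regions inside genes lay in *Tcf4*) and the synaptic adhesion list 0.618, below the 0.869 of all protein-coding genes. Gene lists were not tested for enrichment, and long genes have more room for a region.

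**Figure D2:**
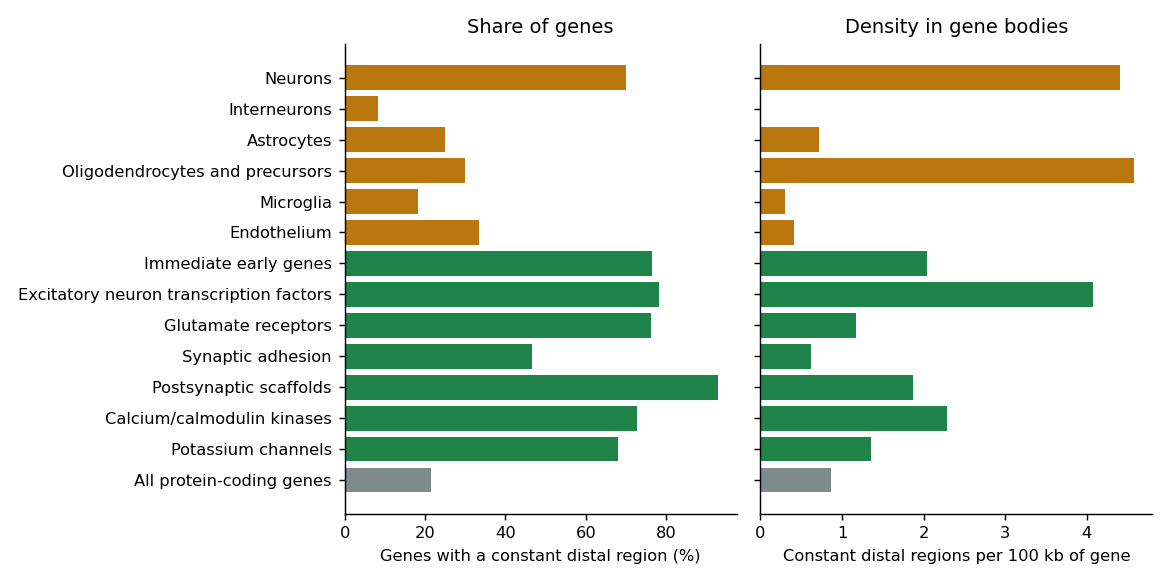
Percent of the genes of each list with a constant distal region (left) and constant distal regions per 100 kb of gene body (right), for cell type markers (brown), neuronal gene lists (green) and all autosomal protein-coding genes (grey). Postsynaptic scaffolds stand at 92.9% and interneuron markers at 8.33%, against 21.6% of all genes, and the density of oligodendrocyte markers comes from *Mbp* and *Cspg4*. Of the 63 regions inside neuronal marker genes 46 lie in *Rbfox3*.

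Immediate early genes, which neurons transcribe within minutes of activity, had 30 constant distal regions at 13 of 17 genes, and 23 of the 30 lay outside the gene. Of the 17 genes *Egr2*, *Egr3*, *Egr4* and *Ier2* had none. *Jun* had 7 between 45.8 and 126 kb upstream, *Nr4a1* had 5, and *Arc* had 3 between 2.83 and 5.64 kb upstream. The *Fos* region, 11.5 kb downstream of the TSS (chr12:85485343-85487164), had a fold enrichment of 5.55, 4.19, 4.99, 5.63 and 5.50 in *Tip60* cKO and of 6.78, 6.10, 6.58, 4.59 and 5.93 in control mice. The middle *Arc* region (chr15:74677058-74678070), whose window holds an AP-1 motif, had 4.11, 4.85, 5.48, 3.58 and 4.2 in *Tip60* cKO and 2.37, 4.69, 4.15, 3.71 and 2.67 in control mice. The groups overlapped at both, and the differences of the centred log2 fold enrichment, explained below, were −0.13 ± 0.14 and 0.45 ± 0.17 (SE; adjusted p = 0.651 and 0.122, limma).

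The level of acetylation in these regions was read from the strongest peak of each region as fold enrichment, the ratio of the pileup height of the ChIP to the local background from the input. The median over the constant distal regions was 4.52, 4.41, 4.60, 4.47 and 4.44 in the 5 *Tip60* cKO and 4.60, 4.54, 4.70, 4.44 and 4.73 in the 5 control mice. In constant promoter regions it was 5.65, 5.29, 5.48, 5.59 and 5.10 in *Tip60* cKO and 6.14, 5.96, 6.30, 5.82 and 5.80 in control mice. The ranges of the genotypes overlapped in distal regions and did not overlap in promoter regions.

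On the log2 scale, the mean of constant distal regions lay below that of constant promoter regions in every mouse. The distance was −0.35 ± 0.04 in control and −0.24 ± 0.04 in *Tip60* cKO mice (SD, n = 5), a difference of 0.11. The single values were −0.29, −0.21, −0.23, −0.28 and −0.20 in *Tip60* cKO and −0.37, −0.36, −0.38, −0.35 and −0.28 in control mice, and control mouse 5 lay within the range of the *Tip60* cKO mice. With pileup in place of fold enrichment the distances were −0.21 ± 0.04 and −0.28 ± 0.04. No test is given, since the regions were chosen on the same lists.

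**Figure D3:**
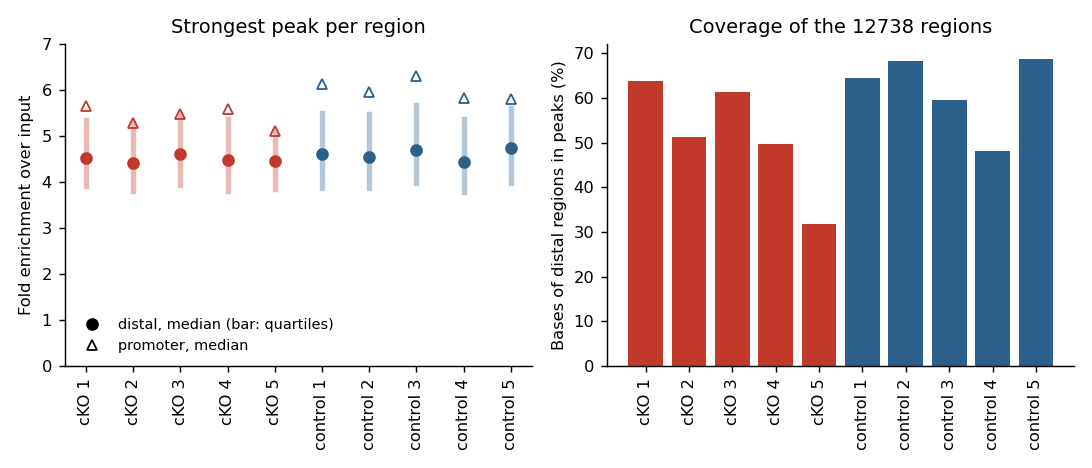
Median fold enrichment of the strongest peak in constant distal regions (filled circles, with bars from the lower to the upper quartile) and constant promoter regions (open triangles) in each mouse (left), and percent of the bases of constant distal regions that lie in peaks (right), for *Tip60* cKO (red) and control mice (blue). Distal medians lie between 4.41 and 4.73 in all mice, promoter medians are 5.80 to 6.30 in control and 5.10 to 5.65 in *Tip60* cKO mice, and *Tip60* cKO mouse 5 has the lowest coverage, 31.7%.

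Regions rich in CpG were the most enriched. The window of 300 bp around the summit held a median of 5 CpGs. In the 995 regions with 20 to 60 CpGs the median fold enrichment over the control mice was 6.24, in the 1653 with 10 to 19 it was 4.85, and in the 5241 with 0 to 4 it was 4.40. In each of the 10 mice the median of the first group was above that of the last, with 5.33 to 6.58 against 4.2 to 4.55. Of the 995 regions 593 (59.6%) lay within 2 kb of another transcript's 5′ end, against 12.5% of those with 0 to 4 CpGs. GC content moved with the CpGs (median 70.7% against 52.3% in the windows), and its part in the recovery of fragments was not tested.

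Among the 6 regions with the highest enrichment in control mice were an intergenic region 93.6 kb from *1700001O22Rik*, an intergenic region 71.1 kb from *Chd2*, which encodes a chromatin remodeler, an intergenic region 25.1 kb from *Atp23*, an intron of *Rcbtb2* and an intergenic region 19.2 kb from *Tldc1*. Their mean fold enrichment in control mice was between 11.1 and 13.2. The first had 13.8, 12.8, 14.1, 12.3 and 12.9 in control and 11.6, 10.1, 9.30, 11.6 and 9.67 in *Tip60* cKO mice. These groups did not overlap, but the centred difference of −0.26 ± 0.14 (SE) did not pass the test over all regions (adjusted p = 0.292, limma). At *Tldc1* a run of 12 bases recurs 9 times around the summit, and the *Rcbtb2* region lies within 2 kb of another transcript's 5′ end. None of the 6 passed the test.

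To compare the genotypes region by region, the log2 fold enrichment was centred on the median of each library over all 23689 constant regions, and limma was fitted to all of them. Of the 12738 constant distal regions 367 (2.88%) differed at an adjusted p below 0.05, against 3.22% of all constant regions. Of the 367, 119 (0.934% of the distal regions) had the lower level in *Tip60* cKO mice and 248 (1.95%) the higher level, against 1.55% and 1.67% over all constant regions. Of the constant promoter regions 248 (2.26%) were lower and 148 (1.35%) higher. The median difference was 0.04 in distal and −0.07 in promoter regions, so the split between lower and higher calls depends on the centring. Without centring 321 distal regions were lower and 148 higher, and centred on promoter regions 67 and 546. Leaving out 1 mouse at a time left 73 to 99 lower and 140 to 208 higher regions. A region that lost its peak in any mouse was not constant, so large losses are left out by the choice. Called regions differed by at least 0.47 on the log2 scale. In simulated data with 200 changed regions, changes of 0.5 were not recovered while 93% of changes of 1 were. In the data 763 of the 23689 constant regions were called, which makes the adjusted threshold less strict than in the simulation. The simulation therefore does not set the smallest change that the data could show.

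At the called regions the pileup and the input background both differed between the genotypes, and their part in the calls was not tested. The log2 fold enrichment is the pileup minus the local background of the same peak on the log2 scale, and at the lower regions the median difference of −0.58 was made of −0.26 in pileup and 0.32 in background. At the higher regions the median of 0.59 was made of 0.24 in pileup and −0.35 in background. Relative to the genome-wide level the median background was 1.33 in *Tip60* cKO and 1.05 in control lists at the lower regions, and 1.03 and 1.55 at the higher regions. The background differed in the direction opposite to the fold enrichment at 119 of 119 lower and 242 of 248 higher regions, and at 9244 of all 12738 (72.6%). Over the 12738 regions the differences in fold enrichment and in background had a Pearson correlation of −0.69, and those in fold enrichment and in pileup one of 0.65. Both are in part arithmetic, because fold enrichment is the ratio of pileup to background. Background differences were centred on the median of each library, as the other values were, so a region at the genome-wide level in every mouse of both genotypes, such as that of *Nrxn2*, has a background difference of 0.08. As 1 input served all 5 mice of a genotype, an input difference at a position that all 5 share is not part of the spread between mice. The background was read at the strongest peak of each mouse, whose place can differ, so it also varied within a genotype. At the region near *Sipa1l1* below it was 1.06 to 2.84 times the genome-wide level among *Tip60* cKO mice. Backgrounds given for a genotype at a single region are means over its 5 lists.

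With the highest pileup anywhere in a region limma called 0 constant distal regions lower and 9 higher (0.00844% of all constant regions were called lower, 0.076% higher and 0.0844% in either direction), with 342 lower and 845 higher at an unadjusted p below 0.05. The highest pileup of a region can belong to another peak than the one with the highest fold enrichment, so the pileup of that latter peak was also tested, an alternative chosen after seeing the data. It gave 0 lower and 9 higher constant distal regions (0.0675% of all constant regions were called), with 362 and 857 at an unadjusted p below 0.05. Of the 119 lower calls 114 had the same sign by this measure, and 50 (42.0%) also had an unadjusted p below 0.05. Of the 248 higher calls it was 235 and 108 (43.5%), and of all 12738 regions 9581 (75.2%) and 1165 (9.15%). Fold enrichment contains the pileup, so a shared sign is in part arithmetic too. Below, the pileup of a region is that of its peak with the highest fold enrichment unless the highest pileup is named.

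**Figure D4:**
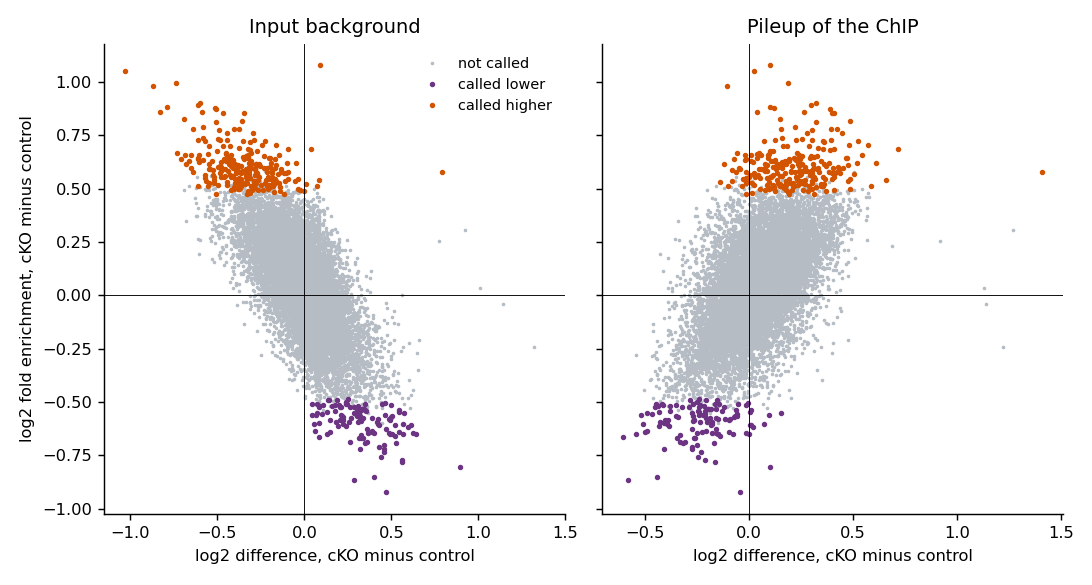
Difference between *Tip60* cKO and control mice in log2 fold enrichment at each of the 12738 constant distal regions, against the difference in log2 input background (left) and in the log2 of the highest pileup of the region (right). Purple points are the 119 regions called lower, orange points the 248 called higher and grey points the others. The lower regions lie at the right and most of the higher regions at the left of the background axis, which is in part arithmetic.

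The 6 regions with the smallest p among the lower ones lay 92.4 kb from *Sipa1l1*, in introns of *Galnt2*, *Nrcam*, *Slc22a4* and *Dlg2*, and 3.37 kb from *Ctdsp1*. SIPA1L1 and DLG2 (PSD-93) are proteins of the postsynaptic density and NRCAM is an adhesion molecule of axons. The region near *Sipa1l1* (chr12:82075405-82076909) had a fold enrichment of 2.75, 4.0, 4.62, 3.59 and 3.87 in *Tip60* cKO and of 6.82, 7.08, 7.46, 8.93 and 7.07 in control mice. All *Tip60* cKO mice lay below all control mice, and the difference was −0.92 ± 0.15 (SE; adjusted p = 0.000671, limma). Its mean background was 1.15 times the genome-wide level in control and 1.75 times in *Tip60* cKO lists. In the single *Tip60* cKO mice it was 2.65, 1.06, 1.06, 2.84 and 1.12 times that level, against 1.15 to 1.16 in control mice. The pileup heights, not scaled for depth, were 30, 18, 21, 38 and 13 against 35, 38, 36, 38 and 39. The means below therefore do not describe each mouse. Of the −0.92, −0.45 lay in the pileup and 0.47 in the background, and the centred pileup differed by −0.47 ± 0.16 without passing the test (adjusted p = 0.255). The highest pileup anywhere in the region differed by −0.04 ± 0.14 (adjusted p = 0.940).

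At *Galnt2*, which encodes a transferase of O-glycosylation, the fold enrichment was 3.49, 2.78, 3.73, 3.36 and 2.68 in *Tip60* cKO and 5.89, 6.30, 5.39, 6.85 and 6.25 in control mice. The difference was −0.87 ± 0.14 (SE; adjusted p = 0.00072, limma). The pileup heights were 16, 16, 16, 14 and 13 against 27, 30, 23, 26 and 31, also without overlap, with a difference of −0.61 ± 0.14 that missed the threshold (adjusted p = 0.0811).

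In the *Nrcam* intron (chr12:44438652-44440809), which lies within 2 kb of another transcript's 5′ end, the fold enrichment was 3.01, 2.30, 3.82, 2.55 and 3.46 in *Tip60* cKO and 5.23, 5.72, 5.83, 6.36 and 5.27 in control mice (difference −0.85 ± 0.15, adjusted p = 0.00122). In the *Dlg2* intron (chr7:91602542-91603955) it was 3.00, 3.59, 3.30, 2.59 and 3.55 against 5.43, 5.23, 5.33, 6.01 and 5.50 (−0.71 ± 0.14, adjusted p = 0.00461). Both differences were smaller by pileup, −0.47 and −0.29, with adjusted p = 0.19 and 0.475. At *Slc22a4* and *Ctdsp1* the differences were −0.76 and −0.77 by fold enrichment and −0.32 and −0.21 by pileup. At each of the 6 regions the groups did not overlap in fold enrichment, which a choice by the smallest p nearly fixes.

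The 6 regions with the smallest p among the higher ones lay in introns of *Prkce*, *Frmd6*, *Gabbr2* and *Synpo*, 11.9 kb from *Pipox* and 20.9 kb from *Anp32e*. PRKCE is a protein kinase C, GABBR2 a subunit of the GABA-B receptor and SYNPO an actin-associated protein of dendritic spines. The *Prkce* region (chr17:86419891-86421769) had a fold enrichment of 6.99, 6.17, 5.45, 5.15 and 5.78 in *Tip60* cKO and of 3.15, 3.34, 3.52, 2.51 and 3.14 in control mice (difference 0.99 ± 0.14, adjusted p = 0.000166). Its pileup heights, which are not scaled for depth, were 33, 27, 28, 22 and 20 against 33, 20, 27, 23 and 26 and overlapped. The centred pileup differed by 0.27 ± 0.15 (adjusted p = 0.514, limma). The mean background was 2.17 times the genome-wide level in control lists, with 1.35 to 2.93 in single mice, and 1.07 times in *Tip60* cKO lists.

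In the *Gabbr2* intron (chr4:46777481-46778488) the fold enrichment was 7.27, 7.23, 7.70, 4.68 and 3.84 in *Tip60* cKO and 2.77, 2.85, 3.45, 3.15 and 2.93 in control mice (difference 1.05 ± 0.16, adjusted p = 0.000327). The difference by pileup was 0.02 ± 0.15, and the background was 1.25 and 3.02 times the genome-wide level. The summit window holds the repeated run shown above, and in the *Frmd6* region a run of 12 bases recurs 8 times. Such a run occurred at least 3 times around the summit of 706 constant distal regions (5.54%), of 2 of the lower and of 12 of the higher regions (4.84%). At *Pipox*, *Synpo* and *Anp32e* differences of 0.98, 0.88 and 0.89 by fold enrichment were 0.12, 0.10 and 0.30 by pileup, and at *Pipox* the highest pileup of the region differed by −0.11. The *Synpo* region lies within 2 kb of another transcript's 5′ end, and repeats make up 51.5% of the *Anp32e* region. Among the 6, the *Frmd6* region alone passed the test by pileup, and at each of them the groups did not overlap in fold enrichment.

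The *Frmd6* region (chr12:70877523-70878791) had a fold enrichment of 7.78, 8.58, 9.90, 9.62 and 8.24 in *Tip60* cKO and of 4.63, 3.25, 5.23, 3.4 and 6.13 in control mice (difference 1.08 ± 0.16, adjusted p = 0.000166). The pileup heights of the same peaks were 60, 66, 66, 67 and 42 against 24, 71, 25, 19 and 34, where control mouse 2 lay above all *Tip60* cKO mice. The background was 1.77, 1.93, 1.62, 1.75 and 1.81 times the genome-wide level in *Tip60* cKO and 1.18, 5.4, 1.17, 1.67 and 1.17 times in control mice. The centred group means differed by 1.17 in pileup and 0.09 in background, which puts the region among the 15 higher regions counted below, but that closeness of the backgrounds rests on control mouse 2. The centred pileup rose by 1.21 ± 0.18 (adjusted p = 3.09e-05), while the highest pileup anywhere in the region differed by 0.10 ± 0.13 (adjusted p = 0.830).

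**Figure D5:**
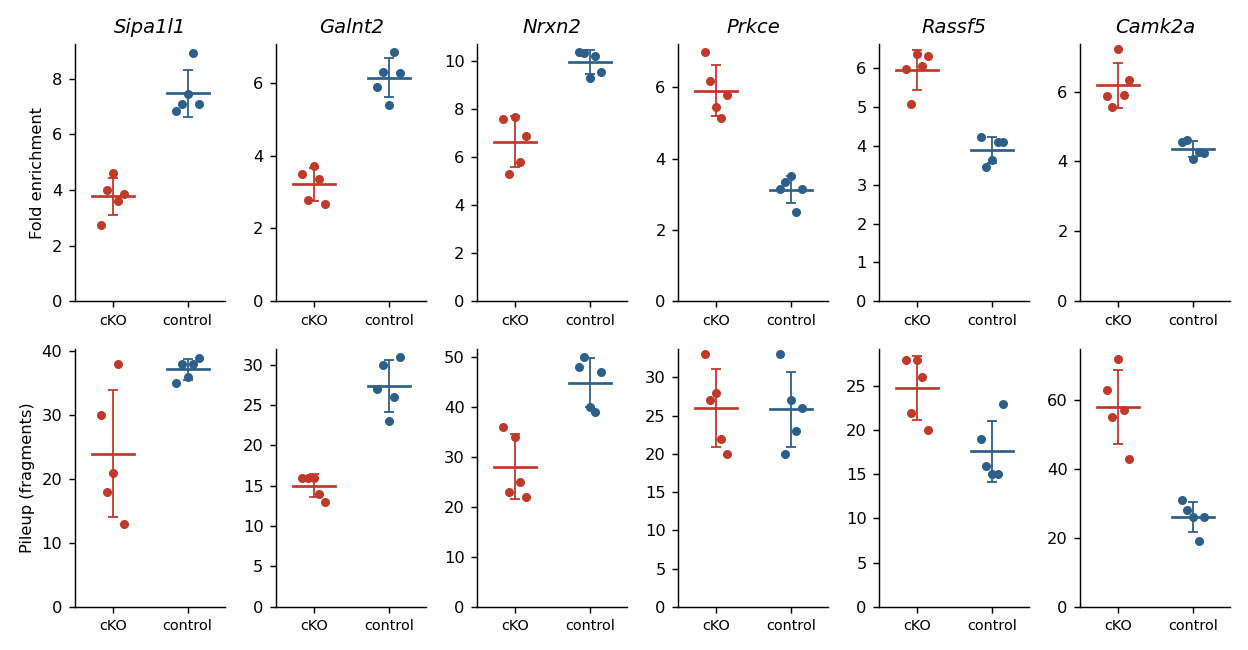
Fold enrichment (top) and pileup height in fragments (bottom) of the peak with the highest fold enrichment in each mouse at 6 constant distal regions, named by their assigned gene, for *Tip60* cKO (red) and control (blue). Points are mice, lines the mean and error bars the SD (n = 5). At *Prkce* the groups are apart in fold enrichment and overlap in pileup, at *Rassf5* the differences are alike in both (0.69 and 0.76 on the log2 scale, after centring), and at *Camk2a* the pileup differs more than the fold enrichment.

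Background is the denominator of fold enrichment, so fewer calls are expected by construction where it hardly differs. The centred log2 background differed by less than 0.1 between the genotypes at 6499 constant distal regions, and of these 11 (0.169%) were lower and 15 (0.231%) higher. This limit was set after the values were seen. Of the 11 lower regions 8 lay within 2 kb of another transcript's 5′ end, against 21.3% of the 6499 and 2 of the 15 higher regions. These 8 were assigned to *Dab1*, *Ldha*, *Ddx19b*, *Cnih4*, *Igfbp5*, *Nrxn2*, *Cers6* and *Best1*, and the other 3 to *Tmem184b*, *Ptbp1* and *Zfp608*. DAB1 is the adaptor of reelin signalling, LDHA a lactate dehydrogenase and NRXN2 a presynaptic adhesion molecule.

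The *Nrxn2* region (chr19:6495342-6500699) was the most enriched of the synaptic adhesion list in control mice. Its fold enrichment was 7.60, 5.29, 7.67, 5.82 and 6.90 in *Tip60* cKO and 10.4, 10.4, 9.30, 10.2 and 9.53 in control mice, without overlap. The difference was −0.52 ± 0.14 (SE; adjusted p = 0.0348, limma), which corresponds to 69.8% of the control level. In the *Tmem184b* intron (chr15:79380241-79381353) it was 3.70, 3.75, 3.07, 3.80 and 4.80 against 7.62, 5.28, 5.45, 6.89 and 6.75 (−0.67 ± 0.15, adjusted p = 0.0112). By pileup the differences were −0.44 and −0.61, with adjusted p = 0.235 and 0.126, and all 11 lower regions had the same sign by pileup without passing the test. The *Nrxn2* call was lost without *Tip60* cKO mouse 2 or 4 or control mouse 1, 2 or 4 (adjusted p from 0.0711 to 0.108). It was also lost with the length-weighted mean fold enrichment of all peaks in the region (−0.38, adjusted p = 0.112), with promoter centring (adjusted p = 0.0622) and with ranks (adjusted p = 0.907). In lane 7 or 8 alone the differences were −0.48 and −0.57, and neither passed the test (adjusted p = 0.199 and 0.435). Lane 8 alone called 0 of the 23689 constant regions, so it could keep no call. Ranks, taken over the 143941 regions in at least 2 lists, called 0 constant distal regions lower, so they could keep no lower call. The *Ldha* call was lost without *Tip60* cKO mouse 2 or control mouse 3 or 4 (adjusted p from 0.0517 to 0.0763) and with ranks (adjusted p = 0.444). Its difference was −0.60 with all mice. In lane 7 or 8 alone it was −0.56 and −0.66, without passing the test (adjusted p = 0.157 and 0.356).

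The 9 regions called higher by the highest pileup fell into 3 kinds. In the intron of *Rassf5* (chr1:131209644-131211296), which encodes a Ras effector, the fold enrichment was 5.96, 5.07, 6.36, 6.04 and 6.30 in *Tip60* cKO and 4.23, 3.45, 3.63, 4.08 and 4.08 in control mice. It rose by 0.69 ± 0.14 (SE; adjusted p = 0.00514, limma), and the pileup rose by 0.76 ± 0.14 (adjusted p = 0.0035), with the background at 1.0 and 1.04 times the genome-wide level. The pileup heights before centring, which are not scaled for depth, were 28, 22, 28, 26 and 20 against 19, 16, 15, 15 and 23 and overlapped. The *Rassf5* region was the only 1 of the 9 that was neither repetitive at its summit nor in the stretch described next, and its fold enrichment passed the test with each mouse left out in turn. The call was lost with ranks in place of fold enrichment (adjusted p = 0.174). Ranks were taken over the 143941 regions in at least 2 lists. They called 4 of the 12738 constant distal regions higher, so they could keep few calls. The *Rassf5* call was also lost in either sequencing lane alone (adjusted p = 0.0549 in lane 7 and 0.343 in lane 8). Lane 8 alone called 0 of the 23689 constant regions, so a loss there says nothing about a single region. The regions in *Bcas3* and *Akap6* consisted of repeats over 77.5 and 97.9% of their length, and in their windows a run of 12 bases recurs 31 and 10 times. By the pileup of the peak with the highest fold enrichment *Akap6* was no longer called (adjusted p = 0.261), the *Frmd6* region was, and the other 8 remained.

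The other 6 lay on chromosome 18, 3 of them between genes 14.2 to 22.4 kb from the TSS of *Arsi*. The other 3 lay in *Camk2a*, the gene whose promoter gives the *CaMKCreERT2* driver its name. Of these, the region in an exon (chr18:60962719-60965038) lies within 2 kb of another transcript's 5′ end. At the 6 regions the highest pileup was 1.89 to 2.66 times as high in *Tip60* cKO mice after centring (adjusted p from 1.47e-09 to 0.000349, limma), and the background was 2.33 to 3.42 times the genome-wide level in *Tip60* cKO against 1.17 to 1.48 times in control lists. In an intron of *Camk2a* (chr18:60940760-60949338) the pileup heights were 63, 55, 72, 57 and 43 in *Tip60* cKO and 31, 28, 26, 19 and 26 in control mice. The fold enrichment there was 5.88, 5.57, 7.20, 5.89 and 6.32 against 4.56, 4.61, 4.06, 4.27 and 4.23, and it rose by 0.58 ± 0.14 (SE; adjusted p = 0.0152), while the other 5 did not pass the test by fold enrichment. The *Tip60* cKO mice carry the driver and the control mice do not, and the part of the transgene in these values was not tested.

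Between kinds of region by position, CpG and transcript start the median differences were small. The median difference was 0.06 in introns, 0.03 in exons and 0.01 between genes, and 62 and 167 of 7834 (0.791 and 2.13%), 17 and 21 of 1580 (1.08 and 1.33%), and 40 and 60 of 3324 (1.2 and 1.81%) were called lower and higher. It was −0.09 in the 602 regions rich in CpG, of which 15 (2.49%) were lower and 4 (0.664%) higher, and 0.05 in the others. In the regions rich in CpG the median background was 1.0 times the genome-wide level for either genotype, to 2 digits. In the others it was 1.07 times that level for *Tip60* cKO and 1.17 times for control mice. The median difference by the highest pileup was −0.03 and 0.04. Regions within 2 kb of another transcript's 5′ end had 35 lower and 35 higher calls of 2475, and the others 84 and 213 of 10263. In the 95 regions that consist mainly of repeats the median difference was 0.14, and 0.17 by the highest pileup. Of these 95 regions 1 (1.05%) was called lower and 7 (7.37%) higher.

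Over all constant distal regions 0.934% were called lower and 1.95% higher, and the counts of these lists are small. Of the 30 regions of immediate early genes 0 were called (limma), and 0 of the 30 were called by the highest pileup. Of the 183 regions of excitatory neuron transcription factors 1 was lower, at *Klf9*, and 4 were higher, 3 of them at *Tcf4* and 1 at *Bcl11a*. Of the 92 regions of glutamate receptors 5 were higher, among them 1 each at *Gria2*, *Grik4* and *Grin1*. Of the 34 regions of calcium/calmodulin kinases 2 were higher, at *Camk2a* and *Camk2b*. Of the 85 regions of potassium channels 4 were higher, among them 1 each at *Kcnd3*, *Kcnj6* and *Kcnma1*. Of the 96 regions of postsynaptic scaffolds 1 was lower, the *Dlg2* region above, and of the 41 of synaptic adhesion genes 1 was lower, at *Nrxn2*, and 1 higher, at *Lingo1*. Median differences of these lists lay between −0.04 and 0.12, against 0.04 over all constant distal regions. Apart from 3 regions of *Camk2a*, no region of these lists was called by pileup.

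Of the most enriched regions of the lists, those of *Dlx2* and *Nrxn2* passed the test by fold enrichment. The *Nfix* region (14126 bp, chr8:84777118-84791243) had a fold enrichment of 11.3, 11.5, 12.1, 11.0 and 8.99 in *Tip60* cKO and of 11.2, 10.9, 11.8, 8.63 and 9.41 in control mice (difference 0.15 ± 0.14). In the *Grik4* intron it was 11.3, 10.1, 10.3, 8.73 and 9.89 against 7.93, 9.45, 9.99, 8.43 and 6.07 (0.36 ± 0.15, adjusted p = 0.165), and the groups overlapped. At *Jun*, *Shank2*, *Camk2b* and *Rbfox3* the differences were −0.23, −0.21, 0.03 and −0.18, each with an SE of 0.14, and those of *Shank2* and *Rbfox3* lie within 2 kb of another transcript's 5′ end. The most enriched regions of marker lists of other cell types differed by more than 2 SE at *C1qb* (microglia, −0.48 ± 0.16), *Pecam1* (endothelium, −0.43 ± 0.16) and *Sox9* (astrocytes, −0.33 ± 0.16) without passing the test (adjusted p = 0.0861, 0.116 and 0.252). Relative to the genome-wide level the background there was 1.38, 1.56 and 1.12 for *Tip60* cKO and 1.08, 1.17 and 1.06 for control mice, and its part was not tested. Positive differences were also found, since the other *Pecam1* region was called higher (0.61), those of *Sox9* reached 0.35 and the most enriched *Mbp* region differed by 0.20 ± 0.15. Over all their regions the median difference was 0.18 for 16 regions of oligodendrocyte genes, 0.09 for 3 of endothelial, −0.06 for 10 of astrocyte, −0.25 for 2 of microglial and −0.37 for 2 of interneuron genes, and the *Pecam1* and *Dlx2* regions were the only 2 called. The region 81.9 kb from *Dlx2*, a factor of interneurons, was lower by 0.67 ± 0.16 (adjusted p = 0.0159, limma), although the groups overlapped, with a background of 1.60 and 1.22 times the genome-wide level and a pileup difference of −0.34 (adjusted p = 0.416).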

How the data were processed

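H4K12ac ChIP-Seq peak lists of 5 *Tip60* cKO and 5 control mice were used. As the labels, the file headers and the study's methods state, the authors mapped reads to mm10 with STAR, removed duplicates with samtools and called narrow peaks per library at q below 0.1 with MACS 2.1.0.20140616 against a pooled input of the same genotype. The deposited pileup is a signal, the number of extended fragments at the summit, not scaled for depth. The deposited fold enrichment is a ratio of pileup to local background, each with a pseudocount. The deposited p-value and q-value columns are given as −log10 values. The lists hold called peaks only, so signal below the caller's threshold was not analysed here.

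Autosomal peaks that shared a base were merged, and regions were placed by their distance to the 5′ ends of 51229 annotated autosomal genes of all biotypes. The peak with the highest fold enrichment represented a region in each library, and the highest pileup of the region was fitted as an alternative. Log2 values were centred on the library median over the 23689 constant regions and fitted with limma 3.58.1 (R 4.3.3), with Benjamini-Hochberg adjustment over all of them. In simulated data 186 of 200 changes of 1 and 0 of 200 changes of 0.5 on the log2 scale were recovered among 23689 regions. Tables were made with Python 3.11.15, pandas 2.3.3 and numpy 2.4.6.

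The regions named were the 6 most enriched in control mice, the 6 with the smallest p in each direction, the 6 clusters with the most members, and the most enriched region of each gene list. Regions called at equal background or by pileup, those around *Camk2a* and the regions of immediate early genes were added after their values were seen. Members and gene lists were chosen with earlier results of these data known. Alternatives included pileup, ranks, other centring, lanes, a replicate block and leaving out each library. Replicate numbers mark different animals, and deviations of same-numbered mice correlated by −0.0215 to 0.0506, so the numbers were not taken to pair them. Lanes come from names of the deposited data (replicates 1 to 3 in lane 7, 4 and 5 in lane 8). A few named regions and list genes are not reported here.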

Additional observations from a re-analysis of the deposited data

Results flagged for a closer look

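In 98 groups of 5 mice, formed at the named regions and for library measures of the constant distal regions, Dixon's test marked 2 (2.04%), and chance marks about 1 in 20. At the intronic region of *Mbp*, a gene of myelin, *Tip60* cKO mouse 2 had a fold enrichment of 6.25, apart from the 6.97 to 7.23 of the other 4 mice. At the intronic region of *Shank2*, a postsynaptic scaffold gene, which lies within 2 kb of another transcript's 5′ end, control mouse 3 had 12.0, apart from the 7.43 to 8.48 of the others.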

How the results depend on the processing

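With the same number of peaks per library 6392 regions were constant and distal, and leaving out 1 library gave 12838 to 16450, the highest without *Tip60* cKO mouse 5. The percent in introns was 58.1% with protein-coding genes only and 60.4% with the 5′ ends of all transcripts, and the percent between genes 30.2% and 32.2%. Against 119 lower and 248 higher regions, the highest pileup gave 0 and 9, the pileup of the peak with the highest fold enrichment 0 and 9, the highest pileup without the stretch around *Camk2a* 0 and 3, ranks 0 and 4, no centring 321 and 148, promoter centring 67 and 546, lane 7 alone 24 and 77, and lane 8 alone 0 and 0. At an unadjusted p below 0.05 limma had 342 lower by the highest pileup, 362 by that of the other peak, 203 by ranks, and 483 lower and 675 higher in lane 8. A call that also had an unadjusted p below 0.05 and the same sign by the highest pileup was found at 39 and 86 regions. By the pileup of the peak with the highest fold enrichment it was 50 and 108. At equal background lay 11 and 15 calls. These settings, the one without the stretch and the pileup of the peak with the highest fold enrichment were chosen after seeing the data. Leaving out 1 library gave 73 to 99 lower and 140 to 208 higher. Counts moved by over 1.5 times without *Tip60* cKO mouse 3 (74 and 140), control mouse 1 (73 lower), 2 (77 and 161), 3 (154 higher) or 5 (79 lower). The replicate block gave 128 and 276, with a distal minus promoter difference of 0.11, and changed no call among the 43 named regions tested. By the highest pileup 6 of these 43 changed sign: the called value near *Pipox*, to −0.11, regions of *Arsi* and *Camk2a* now called at 1.22 and 1.14, and *Chd2*, *Tldc1* and *Jun*, uncalled in both. By the pileup of the peak with the highest fold enrichment 5 changed sign, the *Arsi* and *Camk2a* regions to 1.12 and 1.15. The difference between genotypes in the distance of distal from promoter regions kept its sign in all alternatives run. The cause of these changes was not tested. The caller's threshold limits weak regions, and library *Tip60* cKO 5 limits how many regions can be constant.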
